A study of Rattus norvegicus with 2 samples.

Results

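A set of 9 regulators of epithelial identity were described in skin of male Sprague-Dawley rats: the transcription factors Tp63, Grhl1, Grhl2, Grhl3, Ovol1, Klf5 and Gata3 and the splicing factors Esrp1 and Esrp2. They were found by their symbols, 9 genes among the 22312 of the mRNA table, with 1 row each. The 45 Gy skin came from rats of 4 weeks that had received a single dose of 45 Gy to a treatment area from a 6 MeV electron beam at 750 cGy per minute, and the non-irradiated skin came from an area outside the beam in rats of the same strain, sex and age. The series is titled as a study of radiation-induced skin fibrosis. There was 1 library per group, so differences could not be set against the spread between replicates, the condition could not be tested, and every statement compares these 2 libraries. The time between irradiation and sampling, the number of animals and any pooling are not stated in the labels. The 45 Gy library carries the title NC, an abbreviation that is explained nowhere in the labels, and the direction of each comparison rests on the source label alone.

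Epithelial cells hold their state through a small network of regulators. p63, the product of Tp63, maintains the basal layer of stratified epithelia and drives basal keratin and adhesion genes. The grainyhead-like factors (Grhl genes) activate genes of cell junctions and the skin barrier, Ovol factors repress mesenchymal genes such as those of Zeb factors, and the ESRP proteins direct the epithelial splice forms of transcripts such as Fgfr2 and Cd44. Klf5 is a Krüppel-like factor of proliferating epithelium that smooth muscle and other cells also express, and Gata3 acts in the hair follicle's inner root sheath and in the epidermis but is also a T cell factor.

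Promoter windows of 5 of the 9 genes were matched by symbol in RefSeq (build GRCr8, 250 bases before to 50 after a gene start). The windows of Tp63, Grhl1 and Grhl3 are shown for their values and because their gene starts differ in base composition. Tp63 had the highest FPKM of the set, Grhl1 the largest ratio of scaled counts, and Grhl3 a ratio whose interval includes equality. Grhl1 has more than 1 window and the most upstream is printed. The Tp63 window is on the minus strand, while the coordinates of the expression data, of unstated build, place the gene on the plus strand. The reason for this difference was not tested, and which start of Tp63 the window covers was not determined. Capitals mark the E-box CAGGTG or CACCTG, which Zeb and Snail repressors of epithelial genes recognise, and the GC box GGGCGG or CCGCCC, bound by Sp and Krüppel-like factors.
Tp63, chr11:88554128-88554427, minus strand: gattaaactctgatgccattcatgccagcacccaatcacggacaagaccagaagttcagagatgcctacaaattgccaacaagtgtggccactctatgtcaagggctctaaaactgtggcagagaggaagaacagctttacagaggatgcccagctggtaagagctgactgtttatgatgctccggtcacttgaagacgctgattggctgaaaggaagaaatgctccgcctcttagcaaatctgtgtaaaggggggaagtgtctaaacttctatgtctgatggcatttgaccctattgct
Grhl1, chr6:46935697-46935996, plus strand: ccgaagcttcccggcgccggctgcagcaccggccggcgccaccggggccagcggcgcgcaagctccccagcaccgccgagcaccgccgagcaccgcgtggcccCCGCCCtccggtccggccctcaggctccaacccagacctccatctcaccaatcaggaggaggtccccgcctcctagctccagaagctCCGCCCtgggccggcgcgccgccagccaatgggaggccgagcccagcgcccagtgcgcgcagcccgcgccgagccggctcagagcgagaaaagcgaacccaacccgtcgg
Grhl3, chr5:153089841-153090140, minus strand: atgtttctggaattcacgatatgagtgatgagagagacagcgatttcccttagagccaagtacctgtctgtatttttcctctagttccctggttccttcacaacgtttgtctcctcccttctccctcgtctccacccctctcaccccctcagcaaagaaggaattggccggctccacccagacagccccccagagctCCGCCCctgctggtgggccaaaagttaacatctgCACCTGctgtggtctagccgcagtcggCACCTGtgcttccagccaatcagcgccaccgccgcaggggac

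The Tp63 window had 47.0% G and C bases and 4 CpG dinucleotides, and the Grhl1 window had 75.7% and 38. The Grhl3 window lay between them at 56.7% and 11, against a median of 51.7% G and C over 33469 promoter windows. The Grhl3 window held 2 E-boxes and 1 GC box, and the Grhl1 window held 2 GC boxes. An E-box was present in 18.8% of all windows and a GC box in 33.1%, on either strand. The grainyhead motif AACCGGTT, which reads the same on both strands and was found in 0.173% of all windows, was in none of the windows of these 5 genes. The same held for the GATA motif AGATAA or TTATCT (11.6% of all windows). The motifs searched do not overlap each other in the printed windows. A match is a description of letters in these windows.

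All 9 regulators had higher values in 45 Gy skin than in non-irradiated skin. Their summed level was 43.2 FPKM (reads scaled by the authors for transcript length and sequencing depth) in 45 Gy skin and 11.7 FPKM in non-irradiated skin, a ratio of 3.70. Genes were called higher or lower where log2((FPKM + 1)/(FPKM + 1)) reached 2-fold, and called expressed where their mean over both libraries was 1 FPKM or more. Of the 9 regulators 8 were expressed, with Grhl3 below that mean. A high 45 Gy value alone can carry a gene over that mean. Grhl1, Grhl2, Esrp1 and Gata3 were each below 1 FPKM in non-irradiated skin. By the 2-fold rule 7 of the 9 were called higher and none lower, with a median log2 ratio of 1.23 over all 9. Of all 9743 expressed genes, 9.70% were called higher and 1.53% lower, which are 945 and 149 genes, and their median log2 ratio was 0.21. Relative to that median the ratios of the regulators ran from 0.05 to 1.85, and 5 of the 9 kept 2-fold, beside 674 higher and 266 lower genes in all. The pseudocount of 1 FPKM shrinks the ratio of genes at low level. In scaled counts, the deposited read counts divided by a factor per library, all 9 were higher by 2-fold or more, where 24.8% of 12678 genes with 10 or more reads were higher and 3.95% lower.

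**Figure D1:**
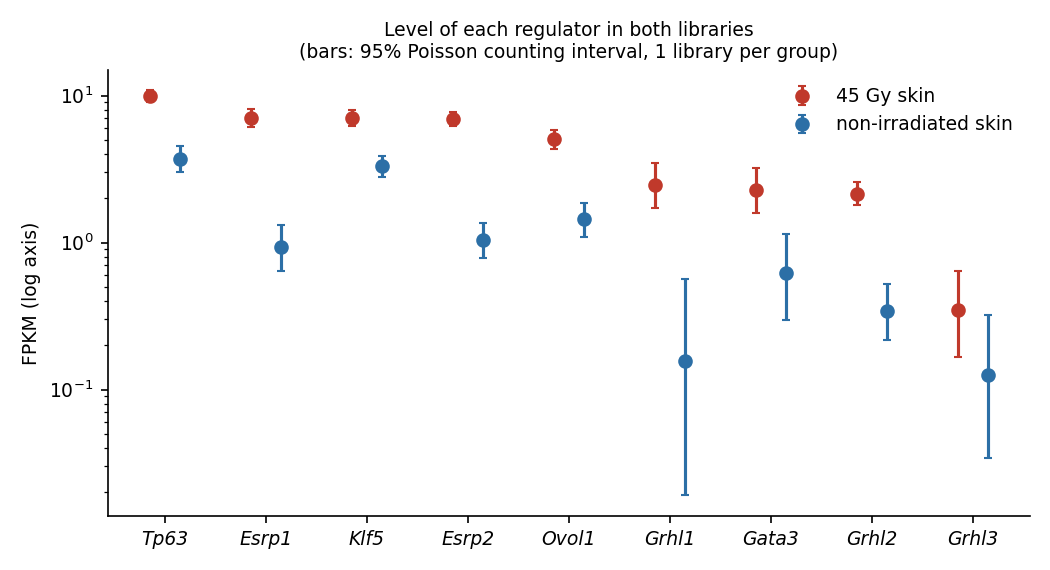
FPKM of the 9 regulators (log axis) in 45 Gy skin (red) and non-irradiated skin (blue), with 95% Poisson counting intervals from the reads of each library. Every red point lies above its blue partner, and the intervals of Grhl3, on 10 and 4 reads, overlap.

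Tp63 had the highest FPKM of the 9 in both libraries. It stood at 9.88 FPKM on 473 reads in 45 Gy skin and at 3.71 FPKM on 99 reads in non-irradiated skin (chromosome 11, 82262248 to 82492158 in the table's coordinates, plus strand; the build is not given in the sources used here). Its log2 ratio was 1.21 in FPKM. Its scaled counts were 499 in 45 Gy skin and 94.1 in non-irradiated skin, which is 5.30-fold higher with a 95% exact counting interval of 4.26 to 6.65. FPKM and scaled counts thus gave different sizes for this gene. One FPKM of Tp63 was worth 50.5 scaled counts in 45 Gy skin and 25.4 in non-irradiated skin, a change of 1.99-fold. For Grhl2, Grhl3, Ovol1, Klf5, Esrp1, Esrp2 and Gata3 the same quotient differed by a factor of 0.989 to 0.998 between libraries.

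A quotient of this kind depends on the transcript length that the FPKM calculation assigns to a gene, and Tp63 is known for long TA and short ΔN transcripts from separate promoters. Among 7897 genes with at least 100 reads and a mean of 1 FPKM, the central 95% of changes lay between 0.966 and 1.01, and 9 genes (0.114%) were beyond 1.5-fold in either direction. Tp63 had the change of second rank among them, after Dlg3, a synaptic scaffold gene, at 2.19. The table gives no values per transcript, and the part of transcript forms in this change was not tested. Grhl1 also moved, with 14.5 scaled counts per FPKM in 45 Gy skin and 12.1 in non-irradiated skin, and the non-irradiated value rests on 2 reads.

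**Figure D2:**
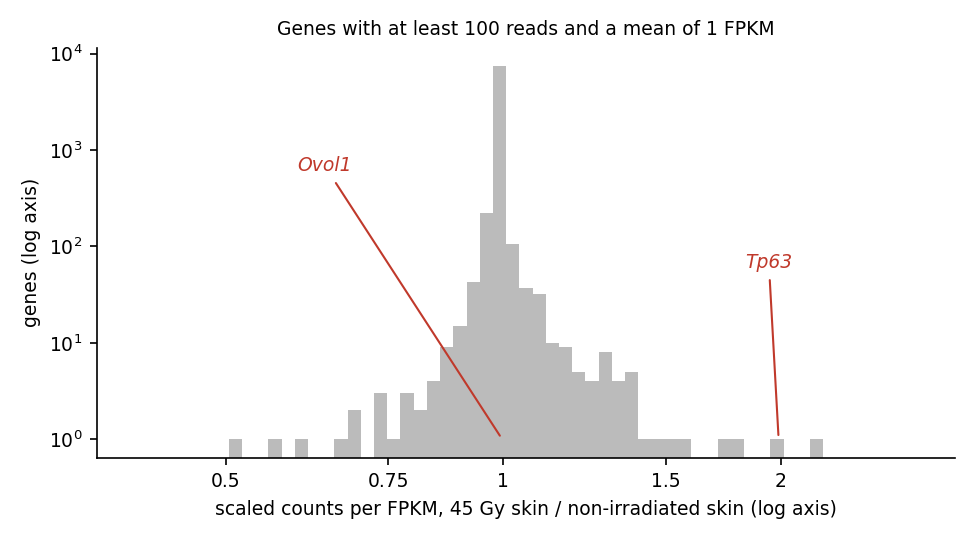
Number of genes (log axis) by the change in scaled counts per FPKM, 45 Gy skin over non-irradiated skin (log axis), for 7897 genes. Nearly all lie close to 1, where Ovol1 is found, and Tp63 stands at 1.99.

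The grainyhead-like genes were at lower levels. Grhl1, which activates desmosomal genes in epidermis, stood at 2.48 FPKM on 34 reads in 45 Gy skin and at 0.157 FPKM on 2 reads in non-irradiated skin. Its log2 ratio was 1.59 in FPKM and its scaled counts were 18.8-fold higher, with an interval of 4.83 to 162 that shows how little the 2 reads fix the size. Grhl2, an activator of E-cadherin and claudin genes, stood at 2.16 FPKM on 124 reads in 45 Gy skin and at 0.344 FPKM on 22 reads in non-irradiated skin, 6.25-fold higher in scaled counts (interval 3.95 to 10.3).

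Grhl3, which is needed for the skin barrier and for wound closure, was barely detected. It stood at 0.349 FPKM on 10 reads in 45 Gy skin and at 0.125 FPKM on 4 reads in non-irradiated skin. The 2.77-fold ratio of its scaled counts had an interval of 0.800 to 12.1, so a difference was not detectable at this depth. Of the other members of the family, Ubp1 stood at 7.18 FPKM in 45 Gy skin and 4.24 FPKM in non-irradiated skin and Tfcp2 at 3.37 and 2.25 FPKM in the same order. Both are widely expressed factors, and both lay within 2-fold, at log2 0.64 and 0.43.

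Ovol1, a zinc finger repressor that restrains proliferation of epidermal progenitors, stood at 5.05 FPKM on 177 reads in 45 Gy skin and at 1.44 FPKM on 56 reads in non-irradiated skin. Its log2 ratio was 1.31, and its scaled counts were 3.50-fold higher (interval 2.58 to 4.82). Ovol2, its paralog, was not called expressed, with 8 reads in 45 Gy skin and 2 in non-irradiated skin.

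Klf5 had the smallest ratio in scaled counts. It stood at 7.02 FPKM on 267 reads in 45 Gy skin and at 3.31 FPKM on 140 reads in non-irradiated skin, a log2 ratio of 0.90, under the 2-fold rule. Its scaled counts were 2.11-fold higher with an interval of 1.72 to 2.61, which lies below the intervals of Tp63, Grhl1, Grhl2, Esrp1 and Esrp2. The row of Klf5 spans 322 kb and overlaps that of Pibf1 on the same strand, which stood at 1.31 FPKM in 45 Gy skin and 1.07 FPKM in non-irradiated skin, so reads of the shared stretch are uncertain.

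The Krüppel-like family as a whole showed no common direction. Of its 11 expressed genes, 1 was called higher, 1 lower and 9 neither, with a median log2 ratio of 0.23 that turned to -0.02 under trimmed-mean scaling. Klf13 was the higher one, at 5.15 FPKM in 45 Gy skin and 1.35 FPKM in non-irradiated skin, on 27 and 8 reads. Klf2, a factor of endothelium and lymphocytes, was the lower one, at 3.21 FPKM in 45 Gy skin and 8.03 FPKM in non-irradiated skin. Klf4, which drives barrier formation in differentiating epidermis and is also expressed in other skin cells, stood at 26.5 FPKM in 45 Gy skin and 32.1 FPKM in non-irradiated skin, log2 -0.27. Klf9 had the highest mean of the family over both libraries, at 29.3 FPKM in 45 Gy skin and 30.1 FPKM in non-irradiated skin.

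Gata3 stood at 2.29 FPKM on 33 reads in 45 Gy skin and at 0.622 FPKM on 10 reads in non-irradiated skin. Its log2 ratio of 1.02 lay just past 2-fold, and its scaled counts were 3.66-fold higher (interval 1.76 to 8.32). No other Gata gene was called expressed. Of 9 measured T cell and lymphoid markers, Cd3d and Cd3g had no reads in either library, Cd3e had 2 reads in 45 Gy skin and none in non-irradiated skin, and the list summed to 4.12 FPKM in 45 Gy skin and 2.79 FPKM in non-irradiated skin. The kinase genes Zap70 and Lck, chosen after their values were seen, had 11 and 8 reads in 45 Gy skin and none in non-irradiated skin, while Il2ra had 2 reads in 45 Gy skin and 7 in non-irradiated skin. The part of these cells in the ratio of Gata3 was not tested. Most of the summed level was Cd4, which rat macrophages also carry, at 2.56 and 2.25 FPKM.

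Keratins of the inner root sheath, where Gata3 acts in mouse hair follicles, were higher in 45 Gy skin as well. Krt27 stood at 7.89 FPKM in 45 Gy skin and 0.614 FPKM in non-irradiated skin. Krt25 stood at 65.6 FPKM in 45 Gy skin and 18.3 FPKM in non-irradiated skin, and Krt71 at 39.9 and 17.3 FPKM in the same order. Of the 5 expressed genes on the Gata3 list, 4 were called higher and none lower, beside 9.70% higher and 1.53% lower among all expressed genes. The Th2 cytokine genes Il5 and Il13 on that list had no reads.

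The splicing factors Esrp1 and Esrp2 had the largest log2 ratios in FPKM and were close to each other in level. Esrp1 stood at 7.04 FPKM on 215 reads in 45 Gy skin and at 0.935 FPKM on 32 reads in non-irradiated skin, with a log2 ratio of 2.05. Esrp2 stood at 6.93 FPKM on 328 reads in 45 Gy skin and at 1.05 FPKM on 55 reads in non-irradiated skin, with a log2 ratio of 1.95. Their scaled counts were 7.45-fold (interval 5.12 to 11.2) and 6.61-fold (4.96 to 8.97) higher. The counting intervals of their levels overlapped in each library, and so did those of their ratios. The row of Esrp2 overlaps that of Nfatc3 on the other strand, which was nearly equal at 3.13 FPKM in 45 Gy skin and 2.94 FPKM in non-irradiated skin.

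The order of the levels in FPKM differed between libraries. In 45 Gy skin Tp63 stood above all others beyond counting error, followed by Esrp1, Klf5 and Esrp2, which could not be told apart, then Ovol1, then Grhl1, Gata3 and Grhl2, which could not be told apart, and last Grhl3. In non-irradiated skin Tp63 and Klf5 led with overlapping intervals. Below them Ovol1, Esrp2, Esrp1 and Gata3 overlapped pairwise, and Gata3 also overlapped Grhl2, Grhl1 and Grhl3. The place of Tp63 rests on its FPKM, and its scaled counts per FPKM changed by 1.99-fold between libraries. Klf5 had more reads in non-irradiated skin, 140 against 99 for Tp63, though reads are not corrected for transcript length. Klf5 stood level with the ESRP genes in 45 Gy skin and above both in non-irradiated skin. Of the 36 pairs of regulators, the intervals of the scaled-count ratio lay apart in 8, of which 5 involved Klf5. The other 3 set Ovol1 below Grhl1, Esrp1 and Esrp2.

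Counting error alone was exceeded by most of the differences. The 95% interval of the scaled-count ratio lay above equality for 8 of the 9 genes and above 2-fold for 6, namely Tp63, Grhl1, Grhl2, Ovol1, Esrp1 and Esrp2. Over the same 12678 genes the same shares were 45.1% and 11.1%. These intervals describe reads of 2 libraries and hold no spread between animals.

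**Figure D3:**
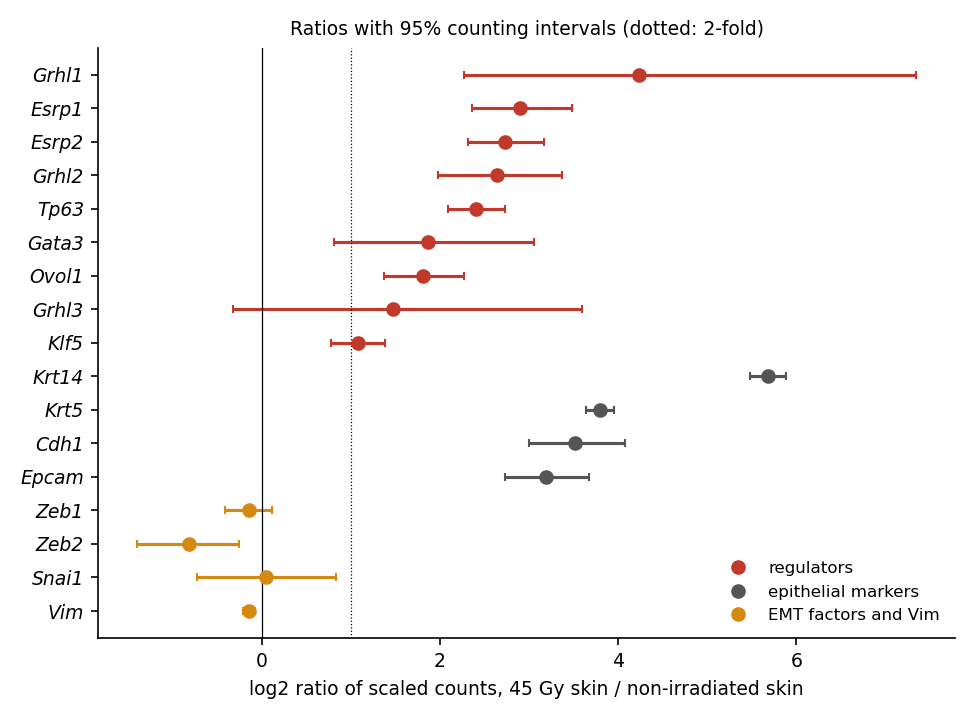
Log2 ratio of scaled counts, 45 Gy skin over non-irradiated skin, with 95% exact counting intervals, for the 9 regulators (red), 4 epithelial markers (grey) and 4 mesenchymal genes (orange). The regulators lie between 1.08 and 4.24, the markers between 3.19 and 5.68, and the mesenchymal genes at or below 0.05.

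The regulators were set beside structural genes of epithelium. In bulk skin, more epithelial cells and more RNA per cell cannot be told apart. Basal keratinocyte genes had a median log2 ratio of 2.59 in FPKM, with 7 of 8 called higher, and differentiating keratinocyte genes 2.95, with 7 of 8. Among all expressed genes 9.70% were called higher, and the median was 0.21. The scaled counts of Krt14, a basal keratin, had a log2 ratio of 5.68 (interval 5.48 to 5.88), those of its partner Krt5 3.79 (3.64 to 3.95), and those of the adhesion genes Epcam 3.19 (2.73 to 3.67) and Cdh1 3.52, the last with 341 reads in 45 Gy skin and 33 in non-irradiated skin.

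All of the regulators except Grhl1 had intervals below those of Krt5 and Krt14. These keratins had the 2 largest FPKM ratios of the basal keratinocyte list. In scaled counts, Krt15 (log2 2.82), Itgb4 (2.70) and Itga6 (2.62) of that list lay close to Esrp2 (2.73) and Grhl2 (2.64). Dst (0.88) lay below every regulator, and Col17a1 (4.81) and Lamb3 (4.39) lay above every one. The median in scaled counts was 2.99 for that list and 2.41 for the regulators. Against Cdh1, which encodes E-cadherin, the intervals of Tp63, Ovol1 and Klf5 lay lower, and those of Grhl1, Grhl2, Grhl3, Esrp1, Esrp2 and Gata3 overlapped. Against Epcam only the intervals of Ovol1 and Klf5 lay lower, and those of the other regulators, Tp63 among them, overlapped. For each 100 scaled counts of Cdh1 there were 139 of Tp63 in 45 Gy skin and 300.0 in non-irradiated skin. The same quotient for Klf5 was 78.3 in 45 Gy skin and 424 in non-irradiated skin, and for Esrp1 it was 63.1 in 45 Gy skin and 97.0 in non-irradiated skin. Of these quotients that of Klf5 differed most between the libraries and that of Esrp1 least.

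Other transcription factors of epidermis gave a mixed picture. Of 18 that were expressed, 8 were called higher, none lower and 10 neither, and the median log2 ratio was 0.76. In scaled counts, 16 of the 25 with 10 or more reads were at least 2-fold higher and none lower, with a median log2 ratio of 1.70. Over all genes with 10 or more reads 24.8% were higher by that measure. Tfap2a, a partner of p63 in keratinocytes, stood at 5.30 FPKM in 45 Gy skin and 0.505 FPKM in non-irradiated skin. Those with the highest means over both libraries, Hopx and Cebpb, pointed the other way and are expressed in many cell types: Hopx stood at 69.2 FPKM in 45 Gy skin and 108 FPKM in non-irradiated skin, and Cebpb at 32.6 and 51.0 FPKM in the same order.

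Factors of the hair follicle had 6 of 11 called higher, none lower, and a median log2 ratio of 1.05. In scaled counts, 13 of the 16 with 10 or more reads were at least 2-fold higher and none lower, beside 24.8% of all such genes. Lhx2, a factor of follicle stem cells, stood at 5.98 FPKM in 45 Gy skin and 0.838 FPKM in non-irradiated skin, and Msx2, a factor of the follicle matrix, at 6.57 and 1.24 FPKM in the same order. Cux1 and Msx1, with the highest means of the list over both libraries, lay within 2-fold at log2 0.15 and -0.27. Tp73, a paralog of Tp63 named after its values were seen because it was not called expressed, had 76 reads in 45 Gy skin and 4 in non-irradiated skin.

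Genes known to be under p63 or grainyhead control were mostly higher in 45 Gy skin. Of 16 expressed p63 targets, 12 were called higher and none lower, with a median log2 ratio of 1.83. Of 13 expressed grainyhead targets, 12 were called higher and none lower, with a median of 1.63. Over all expressed genes 9.70% were called higher and the median was 0.21. Some targets count as expressed through their 45 Gy value alone, such as Cdh1 at 6.49 FPKM there and 0.565 FPKM in non-irradiated skin. With no filter, 13 of 22 p63 targets and 14 of 20 grainyhead targets were called higher, with medians of 1.45 and 1.25. Over all genes with no filter 5.16% were called higher and the median was 0.02. Epcam, an adhesion molecule of simple and follicular epithelium, stood at 22.6 FPKM in 45 Gy skin and 2.47 FPKM in non-irradiated skin, and Rab25, an epithelial trafficking GTPase, at 17.3 and 2.47 FPKM in the same order. The single expressed grainyhead target within 2-fold was Prss8, a channel-activating protease, at log2 0.95. Several of the p63 targets are themselves keratinocyte markers.

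The list linked to Klf5 held 9 expressed genes, of which 5 were called higher and none lower, and the list's log2 median was 1.20. Of all expressed genes 9.70% were called higher and 1.53% lower, with a median of 0.21. Fasn, the fatty acid synthase, stood at 9.81 FPKM in 45 Gy skin and 0.951 FPKM in non-irradiated skin. Notch1, a receptor that promotes epidermal differentiation, stood at 4.88 FPKM in 45 Gy skin and 0.964 FPKM in non-irradiated skin. Ilk and Pdgfa, with the highest means of the list over both libraries, lay within 2-fold at log2 0.54 and -0.22.

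Genes whose transcripts ESRP proteins splice were less uniform at the level of whole genes. Of 22 that were expressed, 5 were called higher, none lower and 17 neither, and the median was 0.61. Over all expressed genes 9.70% were called higher and the median was 0.21. In scaled counts, 11 of the 25 with 10 or more reads were at least 2-fold higher and none lower, beside 24.8% of all such genes. Fgfr2, whose epithelial form depends on ESRP proteins, stood at 3.97 FPKM in 45 Gy skin and 0.387 FPKM in non-irradiated skin. Cd44, a hyaluronan receptor, stood at 13.2 FPKM in 45 Gy skin and 3.14 FPKM in non-irradiated skin. The values are sums over transcripts and hold no exon usage, so splicing itself was not measured.

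Splicing regulators of other tissues differed little between libraries in FPKM. Of 11 such expressed genes besides the ESRP pair, 1 was called higher, none lower and 10 neither, and the median was 0.02. Rbfox1, a splicing factor of muscle and neurons, stood at 54.6 FPKM in 45 Gy skin and 71.4 FPKM in non-irradiated skin, and Rbm24, another muscle factor, at 36.5 and 37.9 FPKM in the same order. Both stood above the ESRP genes in both libraries. Ptbp1, a widely expressed repressor of exons, was the higher one, at 17.4 FPKM in 45 Gy skin and 7.66 FPKM in non-irradiated skin; it was named after its values were seen. Rbm47, another epithelial splicing factor named in the same way, had 12 reads in 45 Gy skin and none in non-irradiated skin. In scaled counts, 5 of the 14 listed genes with 10 or more reads besides the ESRP pair were at least 2-fold higher and none lower. Their median log2 ratio in scaled counts was 0.16. Over all genes with 10 or more reads 24.8% were at least 2-fold higher.

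Factors that oppose the epithelial state did not differ by 2-fold. All 10 genes of the list of EMT (epithelial-mesenchymal transition) factors and mesenchymal genes that were expressed lay within 2-fold, with log2 ratios of -0.52 to 0.18 and a median of -0.16. Zeb1, a repressor of E-cadherin and of ESRP genes, stood at 5.71 FPKM in 45 Gy skin and 6.61 FPKM in non-irradiated skin. Zeb2 stood at 0.948 FPKM in 45 Gy skin and 1.66 FPKM in non-irradiated skin, and in scaled counts its log2 ratio was -0.82, with a 95% interval from -1.40 to -0.25. Vim, the intermediate filament of mesenchymal cells, stood at 171 FPKM in 45 Gy skin and 188 FPKM in non-irradiated skin, and Fn1, fibronectin, at 9.58 and 14.2 FPKM in the same order. Prrx1 had the highest ratio of the list, log2 0.18, at 17.5 FPKM in 45 Gy skin and 15.4 FPKM in non-irradiated skin.

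**Figure D4:**
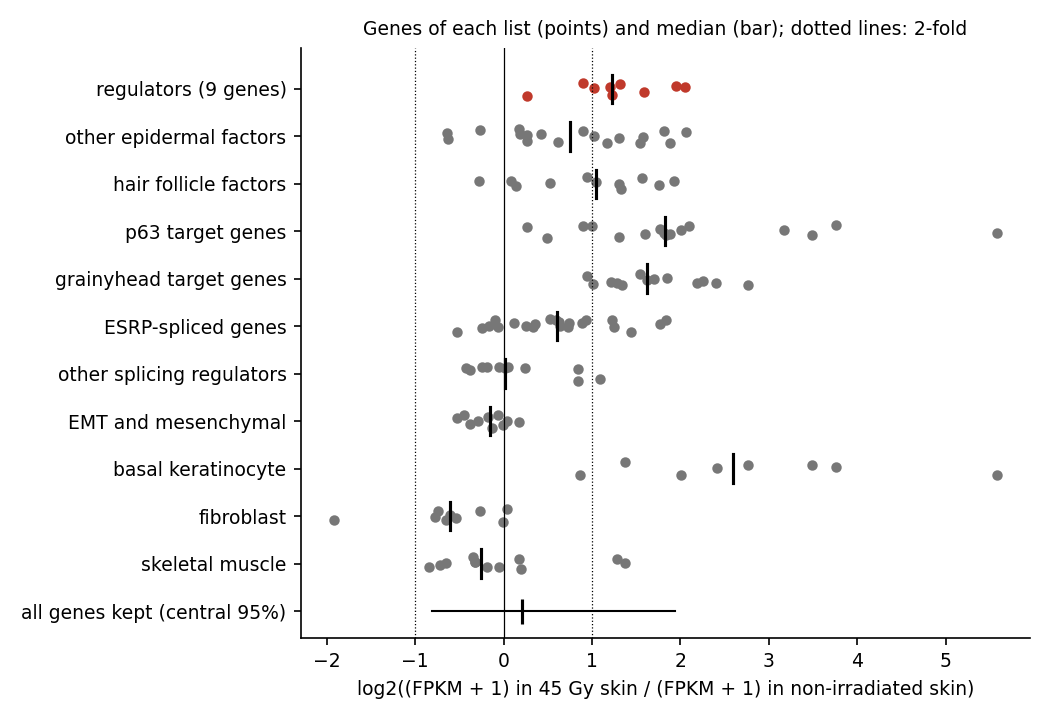
Log2((FPKM + 1) ratio), 45 Gy skin over non-irradiated skin, for the 9 regulators (red) and for expressed genes of other lists (grey, regulators left out), with list medians as bars. The median is 1.23 for the regulators and -0.16 for EMT and mesenchymal genes, and the bottom line spans the central 95%, from -0.81 to 1.94, around a median of 0.21 for all expressed genes.

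Markers of other cell types moved with the same comparison, in which 9.70% of all expressed genes were called higher and 1.53% lower. Skeletal muscle genes took 25.4% of the reads in 45 Gy skin and 28.4% in non-irradiated skin on a list of 12, of which 2 were called higher and 10 neither (median -0.25). Of 9 fibroblast genes 1 was called lower and 8 neither (median -0.60), and of 6 endothelial genes 2 were called lower (median -0.46). Sebaceous gland genes had 7 of 8 called higher (median 2.65), and simple epithelial and eccrine genes 2 of 2, with 4 of 7 at no reads in non-irradiated skin. Of 7 smooth muscle genes, a cell type that also expresses Klf5, 4 were called higher and 1 lower (median 1.68). The summed level of these 7 was lower in 45 Gy skin, at 1436 FPKM, than in non-irradiated skin, at 2321 FPKM. Of 5 Schwann cell and nerve genes 3 were called higher (median 1.13). The part of these cell types in the regulators' ratios was not tested. An estimated 11197482 reads lay on the 22312 genes in the 45 Gy library and 12649571 in the non-irradiated library. The 9 regulators took 1661 and 420 of these.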

How the data were processed

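mRNA of rat skin was measured in 1 library per group. Per the labels' protocols, TRIzol RNA was depleted of ribosomal RNA and made into stranded TruSeq libraries for Illumina sequencing. Tools listed in the submitters' processing notes, with no role or setting, are Cufflinks, Cuffdiff, HISAT2 2.0.4 and cutadapt 1.9.3. The genome build, and whether strand was used in counting, is not stated in the labels or the file. Per the file headers, 1 pair of columns holds FPKM values made by the authors. The other pair, called count, is a scaled signal by the authors and not raw counts, made of multiples of 1.05 (45 Gy) and 0.951 (non-irradiated). The share of non-zero values that came out as whole reads, with a tolerance of 0.01 plus 1e-05 for each read, was 97.5% and 97.7%. Division by these steps gave estimated reads.

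Rows with the same symbol were summed (22714 rows, 22312 genes). Differences are log2((45 Gy FPKM + 1)/(non-irradiated FPKM + 1)), called at 2-fold among genes whose mean reached 1 FPKM. Intervals at 95% are Clopper-Pearson (exact) for ratios of scaled counts and Poisson for levels, with transcript length held fixed. They cover counting error only, and PCR copies may make them too narrow. No count model or p-value was possible with 1 library per group. The counting intervals and the recovery of whole-read steps were tried on simulated counts, with intervals checked in well-covered genes only. The FPKM rule, and intervals of genes as low as Grhl1, Grhl3 and Gata3, were not tried. Sample columns left unused numbered 0.

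The regulators and all gene lists were chosen with earlier results of these data known. The lists come from general knowledge of skin biology. Named genes were all 9 regulators and, per list, the 2 with the largest absolute ratio and the 2 with the highest mean, with paralogs of at least 1 FPKM. Some genes that this rule names are left out of the text. No gene was named for a like pattern, since 2 libraries give a single ratio. 12 listed symbols matched no row. Computation used Python 3.11.15, numpy 2.4.6, pandas 2.3.3, scipy 1.17.1 and matplotlib 3.10.9.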

Additional observations from a re-analysis of the deposited data

How the results depend on the processing

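No paired analysis was possible because each group had 1 library, and no library could be left out. Under 9 alternatives all 9 regulators kept a log2 ratio above 0, and none was at least 2-fold lower. A ratio above 0 was common among all genes. Their median log2 ratio ranged from -0.04 with trimmed-mean scaling to 0.25 with a pseudocount of 0.1 FPKM. Of the 9 regulators with no filter, 7 were at least 2-fold higher. With a mean of at least 5 FPKM, which leaves Tp63 and Klf5, 1 was higher. With ratios centred on their median, or with trimmed-mean scaling, 5 were at least 2-fold higher, since Tp63 (lowest log2 ratio 0.93) and Gata3 (0.81) dropped under the rule. Klf5 ranged from 0.63 to 1.06 and passed at a pseudocount of 0.1 FPKM and on the scaled counts. Grhl3 ranged from 0.05 to 0.99, Tp63 from 0.93 to 2.29 and Grhl1 from 1.38 to 3.32.

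Over all genes, 945 were at least 2-fold higher and 149 lower. With a pseudocount of 0.1 FPKM these were 1562 and 252, and with a mean of at least 5 FPKM 321 and 84. Centring gave 674 and 266, and trimmed-mean scaling 645 and 295, and higher genes made up 71.7% and 68.6% of the calls, against 86.4% without either. Of the list medians, 4 changed sign under some alternative. That of smooth muscle turned to -0.042 with a mean of at least 5 FPKM, where fewer genes remain. The other 3 lay near 0 in all settings: the Klf family (0.23) ranged from -0.15 to 0.28, the splicing regulators with the ESRP pair (0.05) from -0.18 to 0.29, and the T cell list (0.13) from -0.08 to 0.18. The EMT median ranged from -0.44 to -0.10. Depth limits Grhl1, Grhl3 and Gata3, with 2, 4 and 10 reads in non-irradiated skin.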

Other observations

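Among the 9 genes whose scaled counts per FPKM changed by over 1.5-fold, chosen after their values were seen, Tp63 was the only one of the regulators. The highest change was that of Dlg3, at 2.19 on 89 reads in 45 Gy skin and 24 in non-irradiated skin, and the lowest that of Serf1, at 0.506 on 102 reads in 45 Gy skin and 188 in non-irradiated skin. Slfn3, a gene of the Schlafen family, had 0.596 on 288 reads in 45 Gy skin and 137 in non-irradiated skin.

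Prdm1, a repressor known from the sebaceous gland and from terminally differentiating epidermis, was not called expressed and was chosen after its values were seen. It had 53 reads in 45 Gy skin and 2 in non-irradiated skin, while its FPKM was 0.852 in 45 Gy skin and 0.220 in non-irradiated skin. Its scaled counts per FPKM changed by 7.57-fold, on 2 reads in non-irradiated skin.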
